A study of Homo sapiens with 64 samples.

Results

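SUDHL2 is an established human lymphoma line, classed as an activated B-cell-like diffuse large B-cell lymphoma. The 3 arrays of SUDHL2 cells kept 12 h with DMSO, the solvent that serves as vehicle for the drug of the study, were set against the 3 arrays of SUDHL2 cells that were not treated. The arrays were taken by their labels, 6 of 64 in the series, and no measured value entered the choice. Both groups carry the same line with no engineered allele and no drug, and were grown in vitro. The hour at which the untreated cells were collected is not given, so DMSO and 12 h of further culture cannot be told apart, and nothing in the labels says whether the 3 arrays of a group came from separate cultures. The p-values therefore measure only the spread between arrays, which may be technical. The study asked how lymphoma lines respond to OTX015, an inhibitor of the BET bromodomain proteins. SUDHL2 and SUDHL6, a line of the germinal centre type, were each profiled not treated and after 1, 2 or 12 h with DMSO or OTX015, with 3 arrays a group, and a panel of 22 untreated lymphoma lines, both of these among them, had 1 array each. Of 20046 genes with a probe, 13966 were detected on at least 3 of the 42 arrays of SUDHL2 and SUDHL6, and these were tested. Of those tested, 9349 were detected on all 6 arrays compared here and 1205 on none of them, 4 of which passed the test. A list member is called measured below if it was tested, so some measured members were not detected on these 6 arrays.

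As background, SUDHL2 belongs to a lymphoma class that depends on signalling through MYD88, NF-kB and JAK-STAT, and that makes IL6 and IL10, which act back on the same cells. MYC is a transcription factor that drives ribosome production, and E2F factors switch on the genes of DNA replication. Under low oxygen, HIF1 induces genes of glucose uptake and glycolysis, and the factor MTF1 induces the metallothioneins when zinc is high.

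All levels below are log2 intensities after background correction and quantile normalization, and a level compares arrays for 1 gene only, not 1 gene with another. A change is the mean of the DMSO 12 h arrays minus the mean of the untreated arrays on the log2 scale, with its standard error (SE), 3 arrays against 3. Rose and fell mean an adjusted p under 0.05 in limma's moderated test over the 13966 genes. The raw signals had medians of 105.7 to 115.5 on the 6 arrays, and 37.73% to 44.41% of probes were detected. Normalized levels correlated at 0.9945 to 0.995 among the untreated arrays, at 0.9892 to 0.9919 among the DMSO 12 h arrays, and at 0.9764 to 0.9802 between the groups. With 3 arrays a group, precision is limited by their number.

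The B-cell label was checked against markers. All 10 measured markers of the B lineage were detected on all 6 arrays, with mean untreated levels of 6.81 to 10.4. Of these, 4 rose and 1 fell, HLA-DRA (-1.86). PAX5 lay below the detection filter. Of 5 measured T-cell and NK-cell markers, 1 (CD3D) was detected on all 6 arrays and none changed. The summed level of these 5 was 25.7 to 26.5 untreated and 25.4 to 26.5 with DMSO. Detection was not limited to the B lineage. It held on all 6 arrays for 3 of 9 myeloid markers (CD68, FCGR3A and C1QB). The same held for 2 of 4 stromal and epithelial markers (ACTA2 and EPCAM). Of 9 myeloid markers, C1QB rose by 0.68 ± 0.16 (adjusted p = 0.0013), S100A8 passed the test (0.43, adjusted p = 0.026) at levels under the detection limit on all 6 arrays, a call lost within slide 3 and without untreated replicate 2 or 3 or DMSO replicate 1 or 3 (adjusted p = 0.06 to 0.097), and the summed level went from 52.1 to 52.9 untreated to 53.4 to 53.8 with DMSO. Of 4 stromal and epithelial markers, DCN fell (-0.58, not called without untreated replicate 2, adjusted p = 0.059, or DMSO replicate 1, adjusted p = 0.064), and the sums were 26.8 to 27.4 and 26.2 to 26.7. In bulk RNA, fewer cells of a type and less RNA per cell cannot be told apart.

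At 12 h with DMSO, 3041 genes differed from the untreated cells, 21.8% of those tested. Of these, 1603 rose (11.5%) and 1438 fell (10.3%). The change was at least 2-fold for 342 of them (2.45% of those tested), 138 risen (0.988%) and 204 fallen (1.46%). For 39.2% of all genes tested the groups did not overlap, with DMSO higher for 20.7% and lower for 18.5%. The median change over all genes was 0.01. The 12 h counts in gene lists below stand beside these shares of 11.5% risen and 10.3% fallen. A list near these shares is not read as a response of that list. The lists were chosen with earlier results of these data known. A count far from the shares is therefore a description and no independent test.

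**Figure D1:**
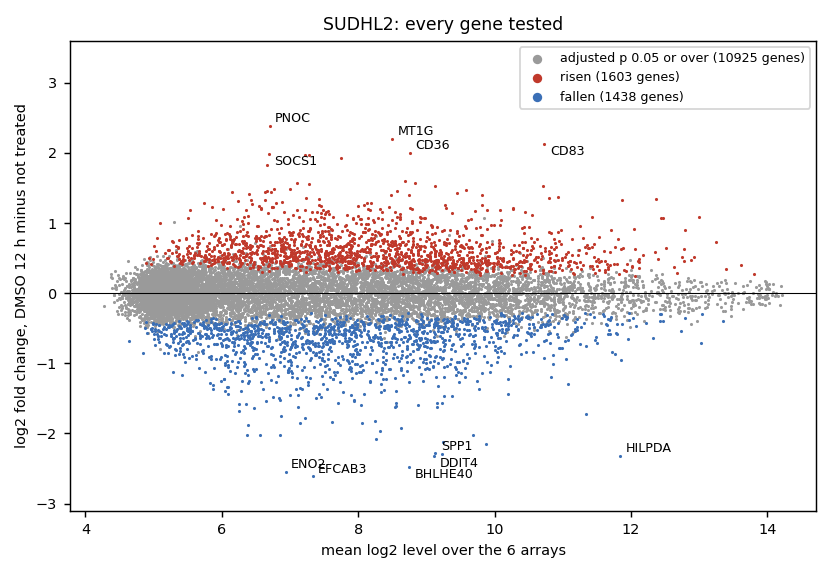
Change at 12 h with DMSO against not treated (vertical axis, log2 fold change) by mean log2 level over the 6 arrays (horizontal axis), 1 point a gene, 13966 genes. The 1603 risen and 1438 fallen genes are coloured, and the changes centre on a median of 0.01.

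The untreated arrays lay 1 on slide 6 and 2 on slide 3, the DMSO 12 h arrays 2 on slide 3 and 1 on slide 1, so slide 3 holds 2 of each. Within slide 3 alone, 2343 genes differed, 2136 of them among the 3041. A further untreated SUDHL2 array stands in the panel of lines, on slide 4. It correlated at 0.971 to 0.9718 with the untreated arrays and at 0.975 to 0.9769 with the DMSO 12 h arrays. Its level was nearer the DMSO mean than the untreated mean for 64.1% of the risen genes and 62.4% of the fallen ones. With it added to the 3 untreated arrays 2259 genes were called, 2085 of them among the 3041. What sets this array apart from the untreated arrays was not tested, and its values are given below beside the results they touch.

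The 12 largest rises ran from PNOC (2.39 ± 0.13) to NUP98 (1.57 ± 0.15) and held 3 metallothioneins. PNOC, the precursor of the neuropeptide nociceptin, was at 5.45, 5.54 and 5.53 on the untreated arrays and at 7.84, 8.08 and 7.76 with DMSO, a rise with adjusted p = 9.6e-17. CD83, a surface marker of activated B cells and dendritic cells, stood at 9.72, 9.56 and 9.72 untreated and at 11.67, 11.99 and 11.73 with DMSO (2.13 ± 0.15, adjusted p = 1e-13). For both genes all 3 DMSO arrays lay above all 3 untreated arrays, as the choice of the 12 genes required. The fatty acid receptor gene CD36 went from 7.75, 7.80 and 7.71 to 9.78, 9.68 and 9.80 (2.00 ± 0.16, adjusted p = 1.2e-12). SOCS1, an inhibitor of the JAK kinases, read 5.72, 5.75 and 5.62 untreated and 7.85, 7.77 and 7.42 with DMSO, a rise of 1.99 ± 0.17 (adjusted p = 7.5e-12). On the panel array these 4 genes stood at 6.76 for PNOC, 11.12 for CD83, 6.48 for CD36 and 5.89 for SOCS1. There PNOC and CD83 lay between the groups, SOCS1 was near its untreated level and CD36 was below all 6 arrays. The other genes among the 12 largest rises, beside 3 metallothioneins, were TMEM150A (1.97 ± 0.16), the hexose transporter gene SLC2A6 (1.92 ± 0.15), the antimicrobial peptide gene CAMP (1.83 ± 0.19), the mitochondrial phospholipase gene PLD6 (1.60 ± 0.14) and NUP98, a nuclear pore gene.

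The 12 largest falls ran from EFCAB3 (-2.61 ± 0.25) to WDR81 (-2.02 ± 0.17) and held 3 members of the hypoxia and glycolysis list, ENO2, ADM and PFKFB4, which are described with that list. HILPDA, a lipid droplet protein induced by hypoxia, was at 12.97, 13.06 and 12.99 untreated and at 11.25, 9.98 and 10.82 with DMSO, a fall of 2.32 ± 0.19 on the log2 scale (change -2.32, adjusted p = 4.4e-12). DDIT4, an inhibitor of the growth kinase complex mTORC1, was at 10.22, 10.37 and 10.24 untreated and at 8.38, 7.44 and 8.02 with DMSO (change -2.33 ± 0.18, adjusted p = 8.3e-13). Replicate 2 was the lowest and replicate 1 the highest of the DMSO arrays for both. Their groups stayed apart, as the choice of the 12 genes required. The transcriptional repressor gene BHLHE40 went from 9.96, 10.04 and 9.96 to 8.05, 7.08 and 7.40 (change -2.48 ± 0.31, adjusted p = 7e-08). SPP1, which encodes the secreted protein osteopontin, went from 10.16, 10.29 and 10.37 to 7.74, 7.94 and 8.30 (change -2.28 ± 0.15, adjusted p = 6.6e-15). SPP1 was at 6.07 on the panel array, under all 6 arrays, and with that array added to the untreated ones its change was -1.23 (adjusted p = 0.061). Others among the 12 largest falls were the non-coding RNA LINC00908 (-2.29 ± 0.19), the kisspeptin receptor gene KISS1R (-2.02 ± 0.22) and RDM1 (-2.08 ± 0.21). Within slide 3 all 24 genes of both sets were called, with rises of 1.42 to 2.67 and changes of -1.92 to -2.56 among the fallen. The arrays of slide 3 are among those on which these genes were chosen, so this is no independent check.

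**Figure D2:**
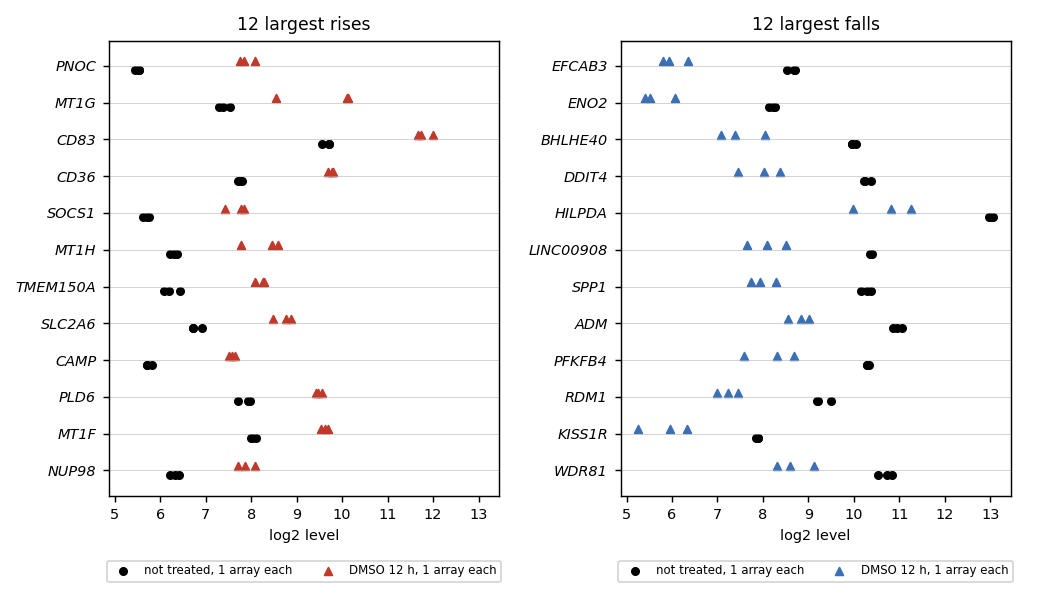
Log2 levels of the 12 largest rises and the 12 largest falls, 1 point an array, untreated and DMSO 12 h groups in different colours. For every gene drawn the 3 arrays of one group lie above the 3 of the other, as the choice of these genes required, and HILPDA runs from 9.98 to 13.06.

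Of 27 measured genes of MYC and of ribosome production 17 rose and none fell, with a median change of 0.52 against 0.01 over all genes. MYC itself was at 10.22, 10.22 and 10.27 untreated and at 11.65, 11.73 and 11.44 with DMSO, a rise of 1.37 ± 0.22 (adjusted p = 6.6e-06). The 2 groups of MYC arrays did not overlap, and the panel array, at 11.03, lay between them. RRP9, a protein of the U3 particle that processes ribosomal RNA, went from 5.96, 6.28 and 6.11 to 7.16, 7.46 and 7.41 (1.23 ± 0.16, adjusted p = 2.1e-07). RRS1, a ribosome assembly factor, went from 8.22, 8.05 and 8.21 to 9.33, 9.59 and 9.20 (1.21 ± 0.14, adjusted p = 9.8e-09). The list's panel-array median minus the untreated mean was 0.46. Within slide 3, 15 members had risen, and with the panel array added to the untreated ones 13.

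Translation factors and mitochondrial import genes had 8 of 18 risen and none fallen (median 0.26). The import channel gene TOMM40 rose by 0.96 ± 0.11, the inner membrane scaffold gene PHB1 by 0.90 ± 0.14 and the import chaperone gene TIMM8A by 0.88 ± 0.17. The count of risen members was 4 with the panel array added. Of 18 cytosolic ribosomal proteins 1 rose (0 within slide 3), with a median of 0.02. Polyamine and nucleotide synthesis genes had 7 of 21 up and 6 down. ODC1, the first enzyme of polyamine synthesis, rose by 0.64 ± 0.12 (adjusted p = 8.9e-05), and the purine enzyme ADSL rose by 0.55 ± 0.12. TYMS, which makes thymidylate for DNA, went from 10.42, 10.38 and 10.57 to 8.97, 9.25 and 9.04 (change -1.37 ± 0.14, adjusted p = 4.1e-10). The folate enzymes SHMT1 (-0.78 ± 0.12) and SHMT2 (-0.73 ± 0.12) also fell. Within slide 3 this list had 3 members up and 6 down, and with the panel array added 2 up and 6 down.

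Of 28 measured E2F targets and replication genes 21 fell and none rose (median -0.63), and of 28 mitosis genes 21 fell and none rose (median -0.73). All DMSO arrays lay below all untreated arrays for 24 of the 28 replication genes and 25 of the 28 mitosis genes, beside 18.5% over all genes. E2F2, an activating E2F factor, was at 8.13, 8.14 and 8.05 untreated and at 6.47, 6.38 and 6.12 with DMSO (change -1.78 ± 0.19, adjusted p = 8.6e-10). CDC45, a part of the replicative helicase, went from 10.93, 10.92 and 10.88 to 9.49, 9.61 and 9.32 (change -1.44 ± 0.15, adjusted p = 1.5e-09). GINS2, another helicase subunit, changed by -1.26 ± 0.12. Among the mitosis genes the kinase AURKB, which acts on chromosome attachment, went from 10.09, 10.02 and 9.97 to 8.79, 8.95 and 8.83 (change -1.17 ± 0.20, adjusted p = 1.2e-05). The checkpoint kinase BUB1 changed by -1.09 ± 0.13 and CDK1, the kinase that starts mitosis, by -1.07 ± 0.18. CCNB1, the cyclin partner of CDK1, was at 9.31, 9.41 and 9.17 and then at 9.28, 9.17 and 9.45 (0.00 ± 0.20, adjusted p = 1). MKI67 was detected on 2 arrays of each group, with a change of 0.06 ± 0.20. On the panel array the median of the replication genes was -0.04 from the untreated mean and that of the mitosis genes -0.43.

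No gene rose among 13 measured G1 cyclins, kinases and inhibitors (1 with the panel array added), and 4 fell. CDK2, the kinase of the entry into S phase, changed by -1.05 ± 0.14, the inhibitor CDKN2D by -0.95 ± 0.13 and the cyclin CCND3 by -0.86 ± 0.14. CDKN1A, the p53-induced inhibitor p21, did not pass (-0.24 ± 0.18, adjusted p = 0.41), and CCND2 was not detected on any of the 6 arrays. Among 19 p53 targets 2 rose (0 within slide 3) and 3 fell, beside 11.5% and 10.3% of all genes. The falls were the DNA repair gene DDB2 (-1.25 ± 0.13), GADD45A (-0.93 ± 0.15) and SESN1 (-0.72 ± 0.14). Genes of quiescence and of FOXO factors had 1 of 19 up and 5 down (median -0.23), with 0 up and 3 down within slide 3. CCNG2, a cyclin that rises in resting cells, went from 7.57, 7.53 and 7.59 to 5.65, 5.26 and 5.73 (change -2.02 ± 0.17, adjusted p = 3.1e-12), and DDIT4 belongs to the same list. In the BCL2 family, which sets the threshold of apoptosis, 4 of 17 rose and 3 fell. The death-promoting members BID (0.95 ± 0.13) and BMF (0.73 ± 0.16; 0.29 as the mean of its probes, adjusted p = 0.086) rose, and PMAIP1, also death-promoting, fell (-0.98 ± 0.17). BCL2 changed by -0.47 ± 0.18 (adjusted p = 0.053) and did not pass, but did within slide 3 (-0.46, adjusted p = 0.032).

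**Figure D3:**
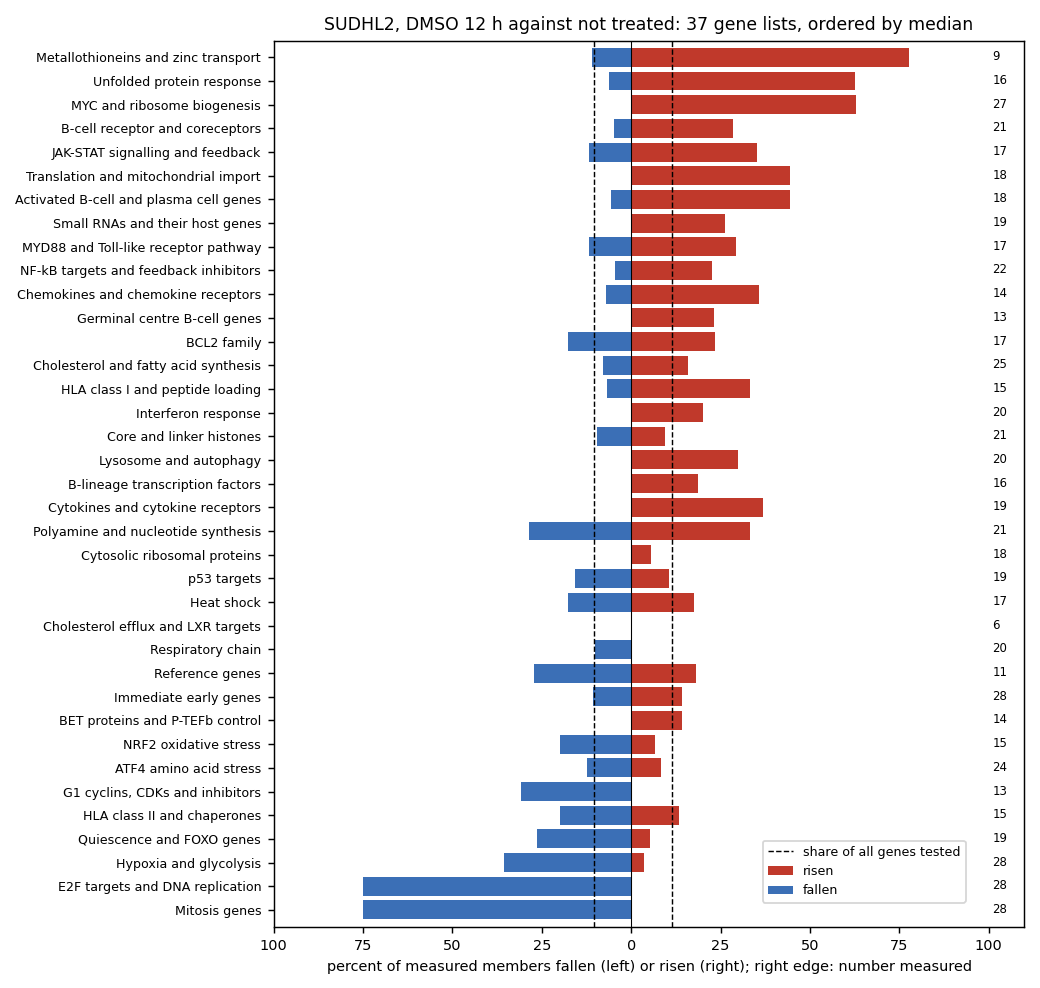
Percent of measured members that rose (right) or fell (left) in each of 37 gene lists, ordered by median change, with the number measured at the right edge. Dashed lines mark the shares of all genes tested, 11.5% risen and 10.3% fallen. Mitosis and E2F lists show 21 of 28 members fallen and none risen, and the MYC and ribosome list 17 of 27 risen and none fallen.

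Hypoxia and glycolysis genes had 1 of 28 risen and 10 fallen (median -0.24). ENO2, an enolase isoform, was at 8.22, 8.28 and 8.14 untreated and at 6.06, 5.52 and 5.42 with DMSO (change -2.55 ± 0.19, adjusted p = 4.5e-13). ADM, the precursor of the vasodilator peptide adrenomedullin, went from 11.06, 10.87 and 10.94 to 9.02, 8.56 and 8.84 (change -2.15 ± 0.20, adjusted p = 9.3e-11). PFKFB4, which sets the level of an activator of glycolysis, went from 10.29, 10.34 and 10.29 to 8.69, 7.58 and 8.30 (change -2.12 ± 0.22, adjusted p = 6.8e-10). In the main fit these 3 genes had fallen more than 4-fold, but the size depended on the processing and the arrays used. Over the alternatives, the panel array added among them, the change ran from -2.74 to -1.49 for ENO2. For ADM it ran from -2.26 to -1.89 and for PFKFB4 from -2.37 to -1.25. The glycolytic enzyme genes GAPDH (-0.04, adjusted p = 0.83) and LDHA (-0.16, adjusted p = 0.22) did not pass, both named after their values were seen. HIF1A, the oxygen-regulated subunit of HIF1, was the member that rose, from 8.30, 8.18 and 8.32 to 9.25, 8.95 and 9.22 (0.87 ± 0.14, adjusted p = 3.8e-06). The panel array lay below the untreated arrays by a median of 0.74 over the list (median -0.74), with ENO2 at 5.65 and PFKFB4 at 6.85 but ADM at 9.92. With the panel array added to the untreated ones 7 members had fallen and 2 had risen.

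The promoters of these 3 genes are shown because the genes carry the largest falls of the list. Sequences are from RefSeq on GRCh38.p14, from 250 bases before the gene's start to 50 after it, 5′ to 3′ along the gene. ENO2 is at chr12:6914330-6914629 on the plus strand, ADM at chr11:10304823-10305122 on the plus strand and PFKFB4 at chr3:48556754-48557053 on the minus strand. Capitals mark ACGTG or GCGTG on either strand, the core that HIF1 recognises, of which each holds 1.
ENO2: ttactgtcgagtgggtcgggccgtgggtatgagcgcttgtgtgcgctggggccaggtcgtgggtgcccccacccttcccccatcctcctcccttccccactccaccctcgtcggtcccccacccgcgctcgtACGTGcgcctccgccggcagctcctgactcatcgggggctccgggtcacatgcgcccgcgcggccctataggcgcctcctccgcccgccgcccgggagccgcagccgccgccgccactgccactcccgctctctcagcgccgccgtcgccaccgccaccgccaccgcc
ADM: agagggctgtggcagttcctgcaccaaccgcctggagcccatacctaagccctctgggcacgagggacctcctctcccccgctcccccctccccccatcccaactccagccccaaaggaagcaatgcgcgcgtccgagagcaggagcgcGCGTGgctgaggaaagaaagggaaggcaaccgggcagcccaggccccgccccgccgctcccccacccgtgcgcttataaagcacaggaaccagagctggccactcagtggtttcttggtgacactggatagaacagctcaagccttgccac
PFKFB4: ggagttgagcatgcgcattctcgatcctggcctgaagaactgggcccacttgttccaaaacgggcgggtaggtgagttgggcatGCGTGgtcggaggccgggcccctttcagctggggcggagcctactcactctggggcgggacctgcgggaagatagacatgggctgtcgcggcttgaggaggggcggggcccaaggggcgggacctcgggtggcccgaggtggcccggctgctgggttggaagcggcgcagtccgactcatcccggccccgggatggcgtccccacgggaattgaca
The core is short and common. Of 24 members of the list with a RefSeq promoter sequence, 19 held it, beside 60.6% of the promoters of the tested genes and 48.4% of all 27305 promoters. It overlaps the letters CACGTG, a motif of MYC and other factors, which 7.43% of all promoters held. A match is a description of letters and no evidence of binding.

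Metallothioneins are small proteins that bind zinc and copper. Of 9 measured genes of the metallothionein and zinc list 7 rose and 1 fell (median 0.97), and 6 rose and none fell within slide 3. MT1G was at 7.28, 7.53 and 7.38 untreated and at 10.12, 10.13 and 8.55 with DMSO (2.20 ± 0.29, adjusted p = 1.5e-07). MT1H went from 6.30, 6.21 and 6.38 to 8.46, 8.58 and 7.77 (1.97 ± 0.21, adjusted p = 2e-09). MT1F went from 8.10, 8.00 and 8.01 to 9.69, 9.63 and 9.52 (1.58 ± 0.24, adjusted p = 3.1e-06). Replicate 3, the DMSO array on slide 1, was the lowest of its group for all 3. The rest of this short list, named after the values were seen, were MT1E (1.30), MT2A (0.97), the metal-sensing factor MTF1 (0.63), the zinc importer SLC39A10 (0.60) and the zinc exporter SLC30A1, which did not pass (-0.03, adjusted p = 0.95). MT1X was the member that fell, at 9.37, 9.51 and 9.48 untreated and 8.75, 9.48 and 7.82 with DMSO (change -0.78 ± 0.27, adjusted p = 0.036). Its groups overlapped, and the call was lost within slide 3 (-0.39, adjusted p = 0.26) and without replicate 3 of DMSO (-0.34, adjusted p = 0.45). It was also lost without untreated replicate 1, 2 or 3 (adjusted p = 0.063, 0.095 and 0.088) and without replicate 1 of DMSO (adjusted p = 0.063). The metallothionein genes are near-identical neighbours on chromosome 16, so a probe may read more than its own gene. The panel array had a median of 0.90 above the untreated mean over the list, with MT1G at 9.28.

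Promoters of MT1H, MT2A and MT1X are shown because MT1H and MT2A rose and MT1X did not follow them. MT1H is at chr16:56669564-56669863, MT2A at chr16:56608334-56608633 and MT1X at chr16:56682220-56682519, all on the plus strand, from the same table and window. Capitals mark TGCACNC or TGCGCNC on either strand, the core to which MTF1 binds. It occurs 8 times in MT1H, 8 times in MT2A and 4 times in MT1X.
MT1H: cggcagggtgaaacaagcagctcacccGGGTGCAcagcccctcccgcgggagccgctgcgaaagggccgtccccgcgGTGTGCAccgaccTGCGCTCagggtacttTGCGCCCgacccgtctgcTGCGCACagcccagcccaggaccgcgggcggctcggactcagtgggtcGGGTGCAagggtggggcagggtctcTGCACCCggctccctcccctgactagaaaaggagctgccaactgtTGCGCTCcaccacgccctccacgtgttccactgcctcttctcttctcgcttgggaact
MT2A: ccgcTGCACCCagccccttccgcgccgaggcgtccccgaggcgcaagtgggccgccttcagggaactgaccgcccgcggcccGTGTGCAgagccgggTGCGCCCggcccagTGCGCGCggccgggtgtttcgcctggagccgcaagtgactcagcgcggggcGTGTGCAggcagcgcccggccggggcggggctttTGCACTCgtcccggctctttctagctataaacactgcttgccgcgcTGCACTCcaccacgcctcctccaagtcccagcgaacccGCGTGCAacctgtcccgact
MT1X: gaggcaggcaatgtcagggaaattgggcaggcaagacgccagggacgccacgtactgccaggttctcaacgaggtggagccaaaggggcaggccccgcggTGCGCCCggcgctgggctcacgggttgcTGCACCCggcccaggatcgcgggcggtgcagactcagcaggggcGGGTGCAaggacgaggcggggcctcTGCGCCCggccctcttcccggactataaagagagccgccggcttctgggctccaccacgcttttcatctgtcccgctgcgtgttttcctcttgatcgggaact
Of 6 members of the list with a promoter in the table, 4 held the core, beside 37.2% of the promoters of tested genes and 29.3% of all. At least 2 matches were held by 8.59% of all promoters. MT1X, with 4 matches, held the core and did not rise.

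Chaperones of the endoplasmic reticulum rose, with 10 of 16 unfolded protein response genes up and 1 down (median 0.55; within slide 3 9 up and 0 down). SDF2L1 went from 9.69, 9.73 and 9.60 to 10.90, 10.84 and 10.89 (1.20 ± 0.14, adjusted p = 2.3e-08). HSPA5, the main chaperone of that compartment, went from 6.77, 6.84 and 6.69 to 7.96, 7.82 and 7.72 (1.06 ± 0.13, adjusted p = 5.1e-08), and HYOU1 rose by 0.89 ± 0.14. The DMSO arrays lay above the untreated ones for 13 of the 16, beside 20.7% over all genes. Heat shock genes were split, 3 of 17 up and 3 down (2 up and 3 down within slide 3), beside 11.5% and 10.3% of all genes. The constitutive chaperone HSPA8 rose by 0.73 ± 0.12 and DNAJB1 by 0.62 ± 0.15, and HSPA4L changed by -1.01 ± 0.14. Among 15 genes of the NRF2 oxidative stress response 1 rose and 3 fell (2 fell within slide 3, and none rose with the panel array added). NQO1, a quinone reductase, rose by 1.19 ± 0.16 (adjusted p = 2.3e-07), and by 0.62 with the panel array added (adjusted p = 0.14). HMOX1, which breaks down haem, went from 8.58, 8.48 and 8.39 to 7.09, 6.95 and 6.71 (change -1.57 ± 0.20, adjusted p = 6.7e-08), and GCLM, a subunit of the enzyme of glutathione synthesis, changed by -1.08 ± 0.13. The ATF4 amino acid stress list had 2 of 24 up, among them WARS1 (0.56 ± 0.11; 0.24 with the panel array added, adjusted p = 0.40), and 3 down, among them CTH (-0.64 ± 0.15). With the panel array added that list had 0 up and 6 down.

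In the signalling pathways of this lymphoma class, IRF4, MYD88 and IL6 rose. IRF4, the transcription factor on which the activated B-cell type relies, went from 9.13, 9.21 and 9.23 to 10.57, 10.21 and 10.54 (1.25 ± 0.20, adjusted p = 4.6e-06). The adaptor MYD88 was at 7.55, 7.49 and 7.49 and then at 8.61, 8.55 and 8.56 (1.06 ± 0.12, adjusted p = 4.1e-09). The cytokine IL6 went from 7.61, 7.81 and 7.76 to 8.79, 9.22 and 8.76 (1.20 ± 0.14, adjusted p = 1.2e-08). IL6 stood at 9.95 on the panel array, above all 6, and with that array added to the untreated ones the change was 0.64 (adjusted p = 0.097). NF-kB targets had 5 of 22 risen (3 with the panel array added) and 1 fallen (median 0.20), CD83 and the inhibitor NFKBIE (0.77 ± 0.16) among the risen. The inhibitor NFKBIA (-0.12 ± 0.18, adjusted p = 0.74), TNFAIP3 (-0.24 ± 0.27, adjusted p = 0.61) and the survival gene BCL2A1 (0.23 ± 0.20, adjusted p = 0.49) did not pass. Of 17 genes of the Toll-like receptor pathway 5 rose, with TLR10 at 0.75 ± 0.15 and IRF7 at 0.69 ± 0.14 (0.04 with the panel array added, adjusted p = 0.95). The IRAK family genes IRAK2 (-1.01 ± 0.25) and IRAK3 (-0.87 ± 0.15) fell.

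JAK-STAT genes had 6 of 17 up and 2 down (median 0.27), and within slide 3 6 up and 1 down. Beside SOCS1 these included the kinase PIM1 (0.94 ± 0.17, adjusted p = 5.8e-05) and the phosphatase PTPN1 (0.90 ± 0.14, adjusted p = 2.7e-06), while the kinase TYK2 fell (-0.52 ± 0.13, adjusted p = 0.0026; within slide 3 adjusted p = 0.065). The feedback inhibitor SOCS3 rose by 0.82 ± 0.21 (adjusted p = 0.0024). STAT3 went from 10.59, 10.62 and 10.81 to 11.11, 11.48 and 10.85 (0.47 ± 0.19, adjusted p = 0.069) and did not pass, but did within slide 3 (0.58, adjusted p = 0.023). Of 19 cytokines and receptors 7 rose and none fell, IL21R among them (0.74 ± 0.16; 0.23 as the mean of its probes, adjusted p = 0.11), and 4 had risen with the panel array added. TNF rose by 0.73 ± 0.16 (adjusted p = 0.00042), and with the panel array added to the untreated ones its change was 0.25 (adjusted p = 0.58). IL10 was at 12.02, 12.13 and 12.09 and then at 12.09, 11.84 and 11.98 on its brighter probe (-0.11 ± 0.15, adjusted p = 0.7), while its other probe rose, so the gene's direction depended on the probe. The chemokine list had 5 of 14 up and 1 down (3 up and 2 down within slide 3, 3 up and 0 down with the panel array added), led by CXCR5, the receptor that guides B cells into follicles (1.34 ± 0.21, adjusted p = 3.4e-06). Interferon response genes had 4 of 20 up and none down (2 up and 1 down with the panel array added), GBP1 (1.12 ± 0.18), IFI35 (0.89 ± 0.13) and MX2 (0.54 ± 0.13; 0.38 with the panel array added, adjusted p = 0.056) among them. On the panel array the median of the interferon list was 1.61 above the untreated mean.

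The activated B-cell and plasma cell list had 8 of 18 up and 1 down (median 0.24). The ectonucleotidase gene ENTPD1 went from 7.95, 7.78 and 7.79 to 9.26, 9.27 and 9.37 (1.46 ± 0.15, adjusted p = 9.7e-10). TNFRSF17, a survival receptor of plasma cells, went from 5.84, 5.61 and 5.64 to 6.91, 7.11 and 7.29 (1.41 ± 0.15, adjusted p = 1.8e-09). BATF, a transcription factor of the AP-1 family, rose by 1.33 ± 0.21. The germinal centre factor BCL6 (0.28 ± 0.18, adjusted p = 0.3) and the plasma cell factor PRDM1 (0.23 ± 0.20, adjusted p = 0.5) did not pass, and both had overlapping groups. Of 13 germinal centre genes 3 rose (2 within slide 3), LMO2 most (0.92 ± 0.13, adjusted p = 8.3e-07). Of 21 B-cell receptor genes 6 rose and 1 fell (6 up and 0 down within slide 3). FCGR2B, an inhibitory Fc receptor, rose by 1.33 ± 0.13, and the receptor's signalling chains CD79B and CD79A by 0.52 ± 0.09 and 0.51 ± 0.11. Among 16 B-lineage factors 3 rose (2 with the panel array added), beside 11.5% of all genes. IKZF1 (0.69 ± 0.14) and POU2F2 (0.59 ± 0.16, and 0.42 with the panel array added, adjusted p = 0.082) were among them. The transcriptional inhibitor ID2 went from 10.11, 9.91 and 9.83 to 11.54, 11.19 and 11.70 (1.53 ± 0.20, adjusted p = 1.4e-07).

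HLA-DRA, the alpha chain of the class II molecule HLA-DR, was at 9.08, 8.98 and 8.91 untreated and at 6.96, 7.17 and 7.27 with DMSO (change -1.86 ± 0.14, adjusted p = 6.7e-13). Its other probe fell as well, and the panel array, at 7.04, was at the DMSO level. Among 15 class II genes and chaperones 2 rose, the lysosomal reductase gene IFI30 (0.59 ± 0.15) and the class II regulator RFX5 (0.35 ± 0.10; within slide 3 adjusted p = 0.096), and 3 fell, of which HLA-DRA alone fell within slide 3; with the panel array added 1 gene of the list fell. The class I list had 5 of 15 up (3 with the panel array added) and 1 down, with the peptide transporter genes TAP1 at 0.96 ± 0.15 and TAP2 at 0.56 ± 0.11. With the panel array added TAP1 was at 0.58 (adjusted p = 0.055).

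Lysosome and autophagy genes had 6 of 20 up and none down (4 up and 1 down with the panel array added), with CTSZ at 0.87 ± 0.22, ATP6V0D1 at 0.83 ± 0.14 and CTSD at 0.62 ± 0.16. Small RNAs and their host genes had 5 of 19 up (3 with the panel array added), with SNHG15 at 1.05 ± 0.11, SNORD31 at 0.93 ± 0.18 and SNHG7 at 0.83 ± 0.14. Sterol and fatty acid synthesis genes had 4 of 25 up and 2 down (2 up and 1 down within slide 3), beside 11.5% and 10.3% of all genes. INSIG1, a brake on that pathway, changed by -0.87 ± 0.13, and none of 6 cholesterol efflux genes passed (1 down within slide 3). Of 14 BET protein and P-TEFb genes 2 rose (1 with the panel array added), the elongation factor gene ELL2 by 1.09 ± 0.18, while HEXIM1, which holds P-TEFb inactive, was detected on 1 of the 6 arrays (-0.14 ± 0.17, adjusted p = 0.66). Histone genes had 2 of 21 up, H4C8 by 1.21 ± 0.27 (0.79 with the panel array added, adjusted p = 0.079), and 2 down, H2AZ1 by -0.40 ± 0.09. That list had 5 up and 1 down within slide 3, and 0 up and 3 down with the panel array added, so its balance depended on the arrays used. Respiratory chain genes had 2 of 20 down and none up (1 up within slide 3), SDHA by -0.55 ± 0.11. Among 11 reference genes 2 rose and 3 fell (2 fell within slide 3), with the transferrin receptor gene TFRC at 1.09 ± 0.13, HPRT1 at -0.66 ± 0.12 and GUSB at -0.49 ± 0.13 (within slide 3 -0.48, adjusted p = 0.05, not called).

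Against the same untreated arrays, 791 genes differed at 1 h (5.66%), 452 of them higher (3.24%) and 339 lower (2.43%). At 2 h 1827 differed (13.1%), 1044 higher (7.48%) and 783 lower (5.61%). The 1 h count was 521, 440 and 437 without untreated replicate 1, 2 and 3, and 454 without replicate 1 of DMSO 1 h. With 75th percentile scaling 43.8% of the 1 h calls were higher, beside 57.1%. Since the 3 comparisons share the untreated arrays, their values are set side by side. MYC was lower at first, at 9.06, 9.39 and 8.85 at 1 h (change -1.14, adjusted p = 0.00079) and at 8.61, 9.40 and 9.14 at 2 h (-1.19, adjusted p = 0.00014), before the 12 h rise of 1.37. IL6 followed that course, with -1.10 at 1 h, -1.08 at 2 h and 1.20 at 12 h, and IRF4 with -0.66, -0.93 and 1.25. ID2 was at 8.84, 8.41 and 8.33 at 2 h (-1.43, adjusted p = 1.5e-06), and the phosphatase gene DUSP2 at 7.26, 7.21 and 6.99 (-1.24, adjusted p = 9.8e-09), both above the untreated level at 12 h. The MYC and ribosome list had 9 members down at 1 h, 11 down at 2 h and 17 up at 12 h.

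A second set was higher at 1 or 2 h than at 12 h. HMOX1 stood at 9.94, 9.92 and 9.45 at 1 h and at 9.49, 10.49 and 10.40 at 2 h (1.64, adjusted p = 9.4e-08), above the untreated arrays, and below them at 12 h. RGS1, a regulator of G-protein signalling, was up by 1.50 at 1 h (adjusted p = 0.00096) and down at 12 h (-1.62 ± 0.30, adjusted p = 4.9e-05). CD69, an activation marker, was up by 2.78 at 1 h and 1.90 at 2 h and at 0.10 ± 0.44 at 12 h (adjusted p = 0.92). TXNIP, which slows glucose uptake, was up by 1.78 and 2.06 and then at -0.02 ± 0.23 (adjusted p = 0.97). TNF was up by 2.07 at 1 h, 2.00 at 2 h and 0.73 at 12 h. The immediate early list had 12 of 28 members up and 2 down at 1 h, and 8 up and 2 down at 2 h. At 12 h it had 4 up and 3 down, with a median of -0.06. Within slide 3 it had 6 up and 2 down, and with the panel array added 2 up and 3 down. Over all genes 3.24%, 7.48% and 11.5% were higher at 1, 2 and 12 h, and 2.43%, 5.61% and 10.3% lower.

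Of the metallothionein and zinc list 8 of 9 genes had risen by 2 h, while the hypoxia and glycolysis list had 4 of 28 members down and 1 up. MT1G was at 8.74, 9.53 and 9.36 at 2 h (1.81, adjusted p = 1.4e-05). Among the genes with the largest 12 h falls, DDIT4 was at 7.57, 7.65 and 7.72 at 2 h (-2.63, adjusted p = 9.7e-14), and HILPDA had changed by -2.31. ENO2 (0.21, adjusted p = 0.56), SPP1 (0.07, adjusted p = 0.85) and SOCS1 (0.02, adjusted p = 0.96) did not pass at 2 h. Of the mitosis genes 5 were up at 2 h and none down, and of the replication genes 3 were down.

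**Figure D4:**
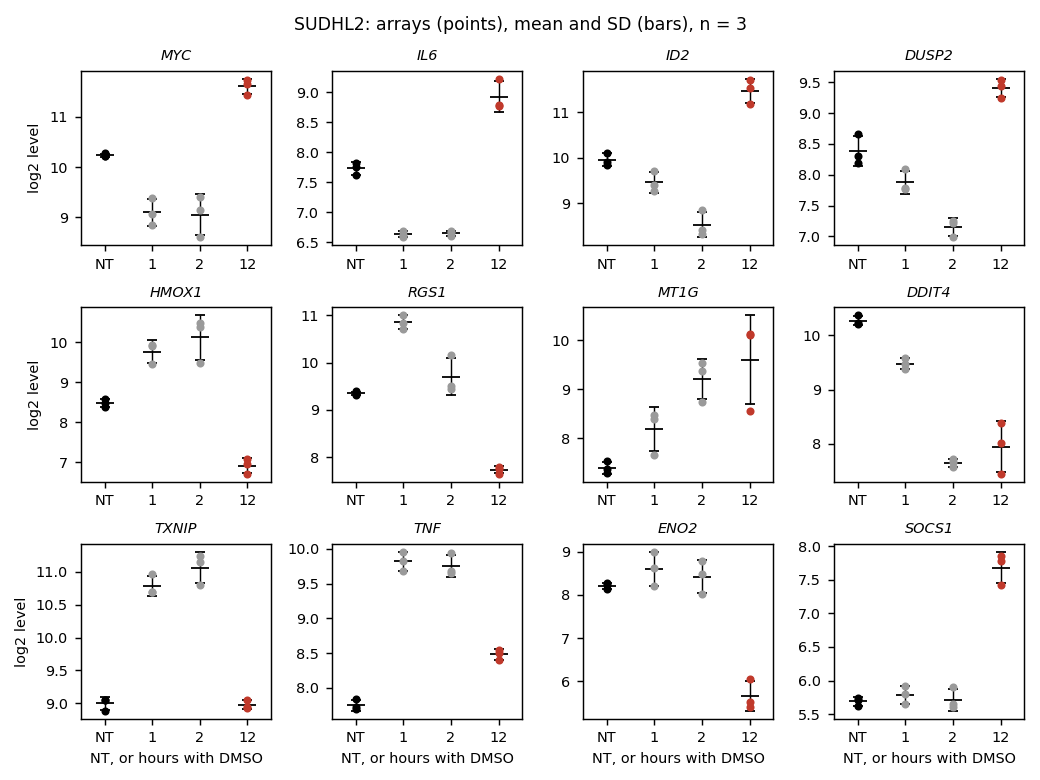
Log2 levels of 12 genes in SUDHL2, not treated (NT) and after 1, 2 and 12 h with DMSO, as single arrays with mean and SD (n = 3). MYC lies at 8.61 to 9.40 at 1 and 2 h and at 11.44 to 11.73 at 12 h, while HMOX1 lies at 9.45 to 10.49 at 1 and 2 h and at 6.71 to 7.09 at 12 h.

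DMSO at 12 h was also compared with DMSO at the earlier hours. By this comparison, without the untreated arrays, 3851 genes differed from 1 h (27.6%) and 3634 from 2 h (26%). MYC was 2.51 above its 1 h level and 2.55 above its 2 h level. Of the MYC and ribosome list 21 of 27 were higher at 12 h than at 2 h and none lower, of the replication genes 17 of 28 were lower and none higher, and of the mitosis genes 25 of 28 were lower and none higher. Of the 9 genes of the metallothionein and zinc list 2 were higher at 12 h than at 2 h and 2 lower, beside 12.3% and 13.7% of all genes.

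The same contrast in SUDHL6 had 2219 genes called (15.9%). Of the 1603 genes that rose in SUDHL2, 562 (35.1%) rose in SUDHL6 too and 30 fell, beside 8.18% of all genes rising there. Of the 1438 that fell, 496 (34.5%) fell there and 11 rose, beside 7.71%. The change itself differed between the lines for 794 genes (5.69%), higher in SUDHL2 for 440 (3.15%) and lower for 354 (2.53%). The MYC and ribosome list rose in both lines, with 17 up and 1 down in SUDHL6 (median 0.56) and no member whose change differed. Replication genes had 10 of 28 down in SUDHL6 (median -0.29) and mitosis genes 14 of 28 (median -0.41), and 6 replication genes and 1 mitosis gene were lower in SUDHL2 by the test of the difference. Unfolded protein response genes had 8 up and 1 down there, with none differing.

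Among the 41 lists, hypoxia genes had the largest number of members whose change differed between the lines, though not the largest share. In SUDHL6 26 of 28 fell (median -0.95), and the change in SUDHL2 was higher for 13 and lower for 1, ENO2. In the metallothionein and zinc list the change in SUDHL2 was higher for 5 of 9 and lower for 1, a larger share. VEGFA, a signal for vessel growth, changed by -0.78 ± 0.18 in SUDHL2 and by -2.68 in SUDHL6 (difference 1.90 ± 0.25, adjusted p = 3.1e-06). PFKFB4 changed by -2.12 in SUDHL2 and by -3.40 in SUDHL6 (difference 1.28, adjusted p = 0.0077). ID2 rose in SUDHL2 and changed by -1.33 in SUDHL6, a difference of 2.86 (adjusted p = 2.6e-09). SOCS1 changed by -0.69 in SUDHL6 (difference 2.68, adjusted p = 2e-10), and PNOC by -0.35, which did not pass there (difference 2.74, adjusted p = 1.6e-13). WDR81 was the widest in the other direction, -2.02 in SUDHL2 and 1.00 in SUDHL6 (difference -3.02, adjusted p = 1.7e-11). HLA-DRA stayed at 0.02 in SUDHL6 (difference -1.87, adjusted p = 3.2e-08). MT1G and MT1H differed by 2.21 and 1.74, but neither was detected on any of the 6 SUDHL6 arrays, so their difference is against a level under the detection limit.

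**Figure D5:**
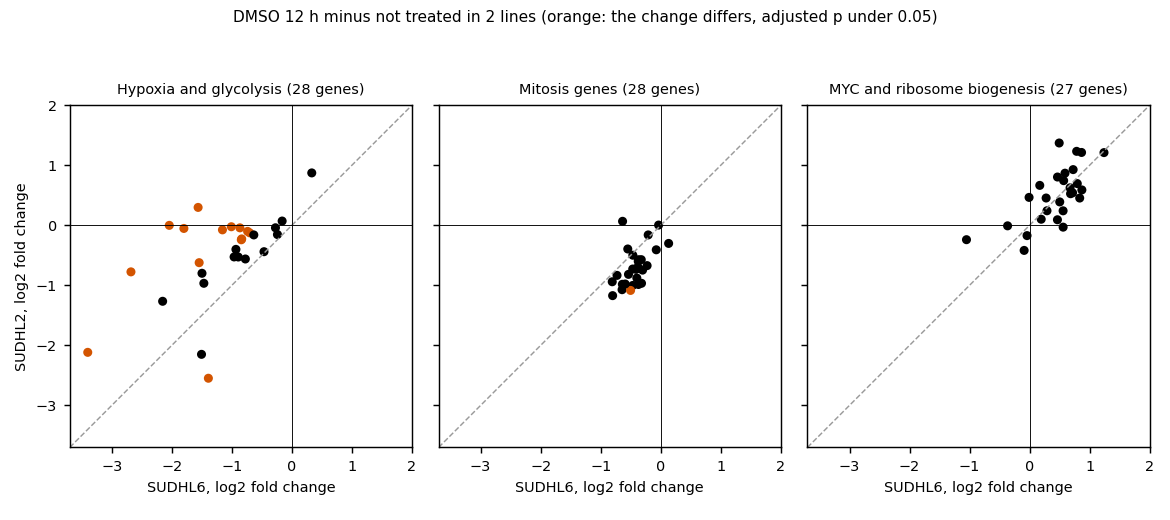
Log2 fold change at 12 h with DMSO in SUDHL6 (horizontal axis) and SUDHL2 (vertical axis) for the members of 3 lists, with orange for genes whose change differed between lines and the dashed line for equal change. Of 28 hypoxia genes 14 are orange, 13 of them above the line, and of 27 MYC and ribosome genes none is orange.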

How the data were processed

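RNA of cell lines, extracted with RNeasy kits and labelled as biotin cRNA per the labels' protocols, was read on 64 single-channel arrays of 47231 probes, 30113 of them with 1 gene symbol, 8 with several and 17110 with none. The deposited table holds linear intensity signals per probe, with no detection p-values; the authors' processed table holds deposited log2 values. For the steps behind these log2 values, the array model, the build and the OTX015 dose, nothing was given in the sources used here.

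Detection was called with a threshold of 0.01 against the background mode of each array mirrored about itself, in place of the detection p-values that the design had allowed for. Signals were corrected with normexp (offset 16), quantile normalized over 64 arrays and put on the log2 scale, and probes detected on at least 3 of 42 arrays were kept (19069 probes, 13966 genes). The brightest probe stood for each of 3860 genes with several; 14 genes had probes called both ways. One limma 3.58.1 model (R 4.3.3; lmFit, eBayes with an intensity trend) with 14 group means and 7 contrasts was fitted to 42 arrays, 2-sided, with Benjamini-Hochberg adjustment at 0.05, and was tested on simulated data.

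Genes named are the 12 largest rises and 12 largest falls with groups that do not overlap and detection on all arrays of the higher group, 26 chosen genes, up to 3 risen and 3 fallen members of each of 41 lists (831 entries, 716 measured), and the 6 largest differences between lines in each direction. The genes, lists and members were chosen with earlier results of these data known. Alternatives covered background, offset, scaling, filter, probe rule, slide, replicate block, samples, trend, each array left out, and the authors' values. Between the untreated and DMSO 12 h groups, deviations of same-numbered arrays correlated at 0.04, -0.01 and -0.02. With 3 arrays a group, this check cannot decide whether the replicate numbers pair the arrays. The highest correlation between the raw log2 values of any 2 of the 6 arrays was 0.996.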

Additional observations from a re-analysis of the deposited data

Results flagged for a closer look

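The change at 12 h with DMSO differed between SUDHL2 and SUDHL6 for 794 genes by the test of the difference itself (limma, adjusted p under 0.05), 440 with a higher and 354 with a lower change in SUDHL2. Among the 179 genes named by rule, 66 differed. The numbers in brackets are the SUDHL2 change minus the SUDHL6 change on the log2 scale.

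Higher in SUDHL2 by more than 1 were ID2 (2.86), PNOC (2.74), SOCS1 (2.68), LRRC32 (2.27), MT1G (2.21), CAMP (2.17), VEGFA (1.90), CD36 (1.83), CD83 (1.80), MT1H (1.74), CXCR5 (1.59), PIM1 (1.53), MT1F (1.52), IRF4 (1.52), FCGR2B (1.29), PFKFB4 (1.28), ENTPD1 (1.25), TNFRSF17 (1.22), TXNIP (1.13), KLF6 (1.13) and NQO1 (1.07). Higher by 1 or less were HLA-E (1.00), TMEM150A (0.99), IL6 (0.97), SLC2A6 (0.96), GBP1 (0.91), ELL2 (0.91), TFRC (0.90), IFI35 (0.86), LMO2 (0.85), RUNX1 (0.84), BMF (0.80), MYD88 (0.79), IKZF1 (0.78), SNHG15 (0.76), C1QB (0.76), NUP98 (0.75), PTPN1 (0.72), CD79A (0.66), P2RY8 (0.65), MVK (0.60) and RPL13 (0.56). Lower in SUDHL2 by more than 1 were WDR81 (-3.02), EFCAB3 (-2.40), SPP1 (-2.13), MT1X (-2.13), HLA-DRA (-1.87), CFAP58 (-1.80), HMOX1 (-1.53), LINC00908 (-1.48), KISS1R (-1.48), CCNG2 (-1.37), E2F2 (-1.17), ENO2 (-1.16) and HSPA4L (-1.14), and lower by less than 1 were PMAIP1 (-0.95), SESN1 (-0.84), CDC45 (-0.81), IRAK3 (-0.79), TYMS (-0.72), HSP90AB1 (-0.72), GCLM (-0.71), GINS2 (-0.70), BCL2L12 (-0.62), BUB1 (-0.58) and PSME2 (-0.50).

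Of the 66, 52 were detected on all 6 SUDHL6 arrays of the contrast. The 8 detected on none of them were MT1G, MT1H, CD36, IL6, C1QB, SPP1, KISS1R and IRAK3, so their SUDHL6 change is one between levels under the detection limit. LRRC32, a surface anchor of latent TGF-beta, fell in SUDHL2 (-0.92 ± 0.24, adjusted p = 0.004) and by -3.20 in SUDHL6, and its SUDHL2 call was lost without replicate 2 of DMSO (-0.68, adjusted p = 0.064) and with the panel's SU-DHL-2 array added to the untreated ones (-0.14, adjusted p = 0.87). The MT1X call in SUDHL2 also rests on single arrays. With 3 arrays a group, no test for a single outlying array was made.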

How the results depend on the processing

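For SUDHL2 DMSO 12 h against not treated, the count of 3041 genes lay between 2343 (within the slide that holds both groups) and 3636 (only the groups compared) under the alternatives to the processing, the batch terms and the samples fitted that leave the panel array out, and was 2387 to 2597 with 1 array left out (risen 1253 to 1356, fallen 1124 to 1255). Slide as a fixed block gave 3050, slide as a random block 3183 and the authors' deposited log2 values 3179. For 63 of the 64 arrays the authors' values matched the signals of the same array best. Whether the exception is among the arrays compared was not recorded. With 75th percentile scaling 58.8% of calls were rises, beside 52.7%. With the untreated SU-DHL-2 panel array added to the untreated arrays (chosen after seeing the data) 2259 genes were called, 2085 of them among the 3041, and with it in place of the 3, a single array assumed to vary like the other groups, 1000, of which 540 rose, 460 fell and 358 were among the 3041; 44 of 163 called genes named by rule then took the opposite sign. Adding the replicate block gave 3452 calls (1801 rises, 1651 falls), though whether the numbers pair the arrays is not known. For SUDHL2 DMSO 1 h against not treated the count was 791, 1198 with the replicate block, 1399 with only the groups compared, and 437 to 643 with 1 array left out, the lowest without untreated replicate 3. Leave-one-out ranges were 1228 to 1742 for 2 h, 3085 to 3568 and 2874 to 3327 for 12 h against 1 and 2 h, 1567 to 2121 for SUDHL6 and 543 to 775 for the difference between lines. Reversed signs were IL10 with the mean of its probes (0.85, adjusted p = 1.3e-06) and SLC3A2 with the panel array added to the untreated ones (-0.14, adjusted p = 0.76). Of 163 called genes named by rule, 37 lost the call when some single array was left out, 26 within slide 3 and 29 with the panel array added. The cause of these changes was not tested. Signal near background limits CCND2, HEXIM1, MKI67 and S100A8. Some genes with large changes were also at low levels in 1 group, and the size of their change depended on the setting. With the panel array in place of the 3 left aside, PNOC ran from 1.33 to 2.54 and SOCS1 from 1.09 to 2.13. CAMP ran from 0.99 to 1.95 and CCNG2 from -2.13 to -1.07. These genes stayed called in all of those settings.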
